A study of Mus musculus with 26 samples.

Results

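Transforming growth factor beta (TGF-beta) signalling in mouse microglia, the resident macrophages of the brain, was followed through 10 genes of the pathway: Tgfb1, Nrros, Tgfbr1, Tgfbr2, Eng, Smad2, Smad3, Smad7, Ski and Pmepa1. They were chosen by name for their place in the pathway, with earlier results of these data known. Counts of members and of further listed genes beside shares of all genes are therefore descriptive. Their symbols were matched to Ensembl identifiers of the mouse assembly GRCm38. All 10 were found among the 52636 genes of the deposited count files, and all 10 were among the 21371 genes that passed the filter on low counts. The study deposited 26 poly(A) RNA-seq libraries of microglia and asks how lowering Tmem106b, whose product sits in the lysosomal membrane, bears on microglia short of progranulin, the secreted and lysosomal protein encoded by Grn. Tmem106b WT libraries carried Grn WT (n = 3), Grn HET (n = 5) or Grn KO (n = 4), Tmem106b HET libraries carried Grn WT (n = 4), Grn HET (n = 3) or Grn KO (n = 3), and Tmem106b KO libraries carried Grn WT (n = 4). The sex label was female in 14 libraries and male in 12, and a label named dissection read Entire in 18 and Hemi in 8, without further explanation. With Tmem106b WT, Hemi libraries numbered 1 in Grn WT, 2 in Grn HET and 1 in Grn KO. With Tmem106b HET they numbered 2, 0 and 1, and Tmem106b KO had 1. In Tmem106b HET Grn WT and Grn KO every Hemi library was male and every Entire library female. Within those groups the labels cannot be told apart. The labels do not state the strain, the alleles, the age, how the cells were isolated or whether each library came from its own animal. The p-values therefore weigh group differences only against the spread among these libraries, which may be technical in part.

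TGF-beta 1 is made as a latent complex that microglia hold at their surface with the anchor protein NRROS until integrins release the active ligand. The ligand binds the type II receptor TGFBR2, which recruits and phosphorylates the type I receptor TGFBR1, and the type I receptor in turn phosphorylates SMAD2 and SMAD3, which enter the nucleus with SMAD4. Adult microglia depend on this signal for their resting gene expression. SMAD7, SKI and PMEPA1 are brakes on it, of which SMAD7 and PMEPA1 are often themselves induced by it.

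Total counts were 37.6 to 63.7 M per library. Levels are given in CPM, each gene's count scaled to a common library total, with totals adjusted by the trimmed mean of M values (TMM). Grn averaged 3350 CPM in Tmem106b WT Grn WT and 4.84 CPM in Tmem106b WT Grn KO, and 2980 against 3.23 CPM in the Tmem106b HET groups, and Tmem106b averaged 28.2 CPM in Tmem106b KO against 77.6 CPM in Tmem106b WT Grn WT. The 8 defining markers of microglia (among them Csf1r, Tmem119 and Cx3cr1) were all detected in every library and summed to 20750 to 52130 CPM of the plain library total in 24 libraries. In the other 2, Tmem106b HET Grn KO replicate 3 and Tmem106b KO Grn WT replicate 2, both labelled Hemi, the sum was 8595 and 8824 CPM while 9 neuronal markers summed to 6471 and 7232 CPM. The Grn KO calls of the 10 genes in Tmem106b HET are given with and without the former.

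Promoter sequence is shown for the 3 members whose first listed start carries the SMAD core motif CAGAC, since SMAD3 and SMAD4 are known to bind that core, and since Eng among them had the largest difference in the data. Each runs from 250 bases before to 50 bases after the start listed by RefSeq on GRCm38.p6, in the direction of the gene. Capitals mark CAGAC or its reverse complement GTCTG. The windows are chr2:32646345-32646644 (plus strand) for Eng, chr9:116175314-116175613 (minus strand) for Tgfbr2 and chr16:32165545-32165844 (minus strand) for Nrros.
Eng: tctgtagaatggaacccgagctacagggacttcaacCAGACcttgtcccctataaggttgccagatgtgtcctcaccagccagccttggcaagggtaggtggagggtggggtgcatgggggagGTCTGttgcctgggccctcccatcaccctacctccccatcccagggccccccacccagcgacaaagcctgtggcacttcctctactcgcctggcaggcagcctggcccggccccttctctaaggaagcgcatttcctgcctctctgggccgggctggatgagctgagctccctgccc
Tgfbr2: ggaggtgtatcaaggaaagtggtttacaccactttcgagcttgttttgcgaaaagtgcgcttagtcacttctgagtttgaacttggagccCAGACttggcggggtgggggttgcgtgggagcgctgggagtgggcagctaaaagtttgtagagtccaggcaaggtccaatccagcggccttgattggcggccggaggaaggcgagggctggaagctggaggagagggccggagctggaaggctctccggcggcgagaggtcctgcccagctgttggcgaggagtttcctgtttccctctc
Nrros: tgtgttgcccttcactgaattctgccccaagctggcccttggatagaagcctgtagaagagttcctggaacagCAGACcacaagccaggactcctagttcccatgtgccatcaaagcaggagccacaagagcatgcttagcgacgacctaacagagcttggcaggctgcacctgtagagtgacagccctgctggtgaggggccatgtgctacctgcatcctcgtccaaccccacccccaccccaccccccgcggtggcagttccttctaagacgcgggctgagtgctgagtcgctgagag

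The RefSeq table matched 7 members with 8 promoters, Tgfbr1 having 2, and Smad2, Smad7 and Pmepa1 had no entry. CAGAC on either strand was found in promoters of 4 members, with 2 copies in Eng and 1 each in Tgfbr2, Nrros and the second Tgfbr1 start. It was found in 49.6% of all 32851 promoters of the same length. The ETS-type motif GAGGAAG, on either strand and in no overlap with CAGAC, was found in promoters of Eng, Tgfbr2 and the second Tgfbr1 start, and in 13.6% of all promoters. The Tgfb1, Smad3 and Ski windows held neither motif.

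Per length, the receptors and the anchor stood highest in microglia with both genes WT. On the authors' RPKM scale (counts scaled by gene length and library total), Tgfbr1 was at 140.9 ± 30.3 (SD, n = 3), Nrros at 108.1 ± 20.4 and Tgfbr2 at 72.8 ± 18.3 in Tmem106b WT Grn WT. Pmepa1 followed at 66.1 ± 22.9, Tgfb1 at 44.6 ± 9.22, Ski at 29.2 ± 6.83 and Eng at 21.7 ± 6.02. The SMADs were lowest, with Smad2 at 14.5 ± 2.54, Smad3 at 11.7 ± 3.45 and Smad7 at 7.89 ± 0.194 RPKM. Ranges of neighbours in this order overlapped except between Smad3 (9.326 to 15.61) and Smad7 (7.67 to 8.038), so the order of neighbours above Smad3 is not settled by 3 libraries.

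The first comparison asks what complete loss of Grn does to these genes when Tmem106b is intact. Eng, which encodes endoglin, a co-receptor for ligands of the TGF-beta family, fell 3.97-fold in Tmem106b WT Grn KO, and it was the only 1 of 10 members that passed edgeR's quasi-likelihood test at an adjusted p under 0.05. Of all genes tested 0.576% passed in either direction and 0.15% passed as lower. All 10 members had a log2 fold change below 0, with a median of -0.79 against 0.097 over all genes tested. In 6 members (Tgfb1, Nrros, Eng, Smad3, Smad7 and Pmepa1) every Grn KO library lay below every Grn WT library, a pattern seen in 7.45% of all genes tested. The same question in Tmem106b HET gave larger differences: 8 of 10 members fell, while 14.5% of all genes passed in either direction and 6.05% as lower, and the median log2 fold change of the members was -1.54 against -0.024 over all genes. In 8 members, all but Smad2 and Nrros, the Grn KO libraries lay below every Grn WT library, against 9.37% of all genes. Averaged over both Tmem106b genotypes 9 of 10 members fell, all but Smad2, while 18.1% of all genes passed and 7.38% passed as lower. In bulk libraries fewer microglia in the sample and less RNA per microglial cell cannot be told apart, and the summed microglial markers were also lower in Grn KO, at 27730 ± 3148 CPM (n = 4) against 46930 ± 5793 (n = 3) in Tmem106b WT and 19910 ± 10920 (n = 3) against 43820 ± 7019 (n = 4) in Tmem106b HET. The 9 neuronal markers moved the other way among the Entire libraries, from 81.15 and 104.3 CPM with Grn WT to 438.8 to 812.1 CPM with Grn KO in Tmem106b WT, and from 48.84 and 67.37 CPM to 489.4 and 2038 CPM in Tmem106b HET. Among the Hemi libraries they were at 1218 CPM with Grn WT and 468 CPM with Grn KO in Tmem106b WT, and at 615 and 1329 CPM against 6471 CPM in Tmem106b HET. With the neuron, oligodendrocyte and choroid plexus marker sums as covariates 0, 0 and 1 members passed in Tmem106b WT, Tmem106b HET and the average, as did 0.0983%, 0.00936% and 0.664% of all genes.

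**Figure D1:**
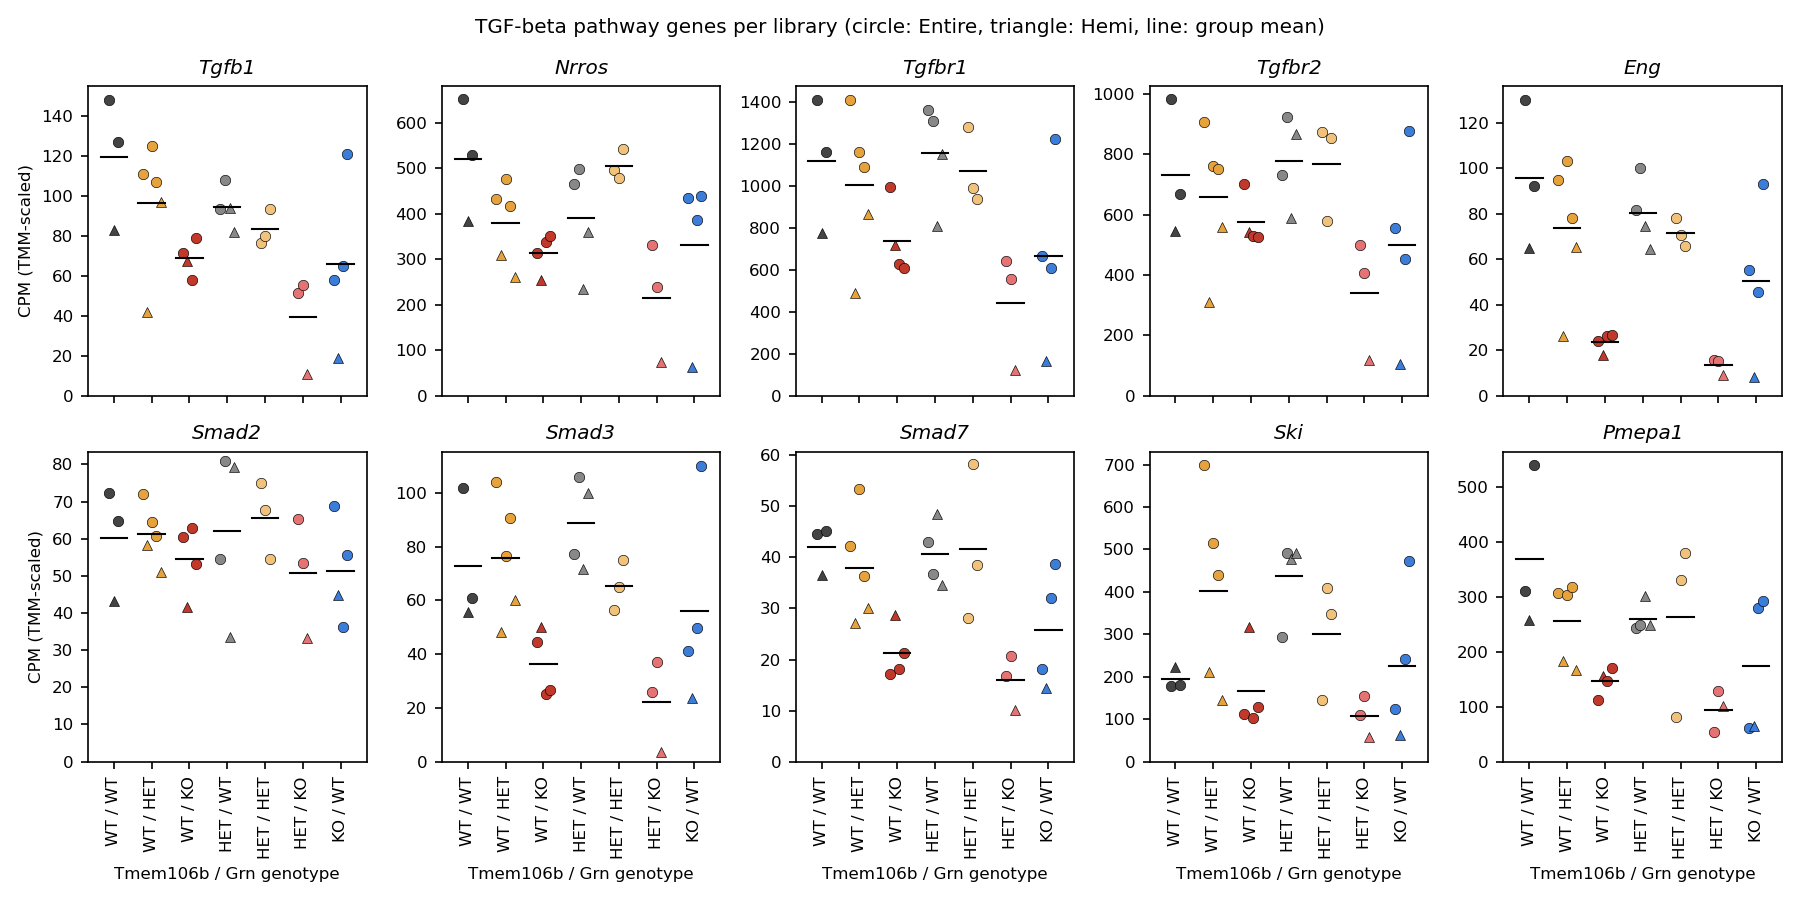
Level of each of the 10 genes in every library, as TMM-scaled CPM on a linear axis from 0, by Tmem106b and Grn genotype. Points are libraries (circles Entire, triangles Hemi) and lines are group means. Eng in the Grn KO groups lies between 9.07 and 26.9 CPM, below every Grn WT library of the same Tmem106b genotype, while Smad2 overlaps in all groups.

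Tgfb1, the ligand (chromosome 7, 25687002 to 25705077), was at 148, 83.0 and 127 CPM in Tmem106b WT Grn WT and at 71.5, 67.2, 57.8 and 79.0 CPM in Tmem106b WT Grn KO. With Tmem106b HET the values were 93.5, 108, 94.0 and 82.1 CPM with Grn WT and at 51.6, 55.2 and 10.8 CPM with Grn KO. All Grn KO libraries lay below the Grn WT libraries of their Tmem106b genotype, and the lowest was the library low in microglial markers. The log2 fold change was -0.73 ± 0.39 (SE, edgeR adjusted p = 0.46) in Tmem106b WT and -1.57 ± 0.42 (adjusted p = 0.018) in Tmem106b HET. The latter call was lost without Grn KO replicate 3 (-1.04, adjusted p = 0.14).

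Nrros, which encodes the surface anchor of latent TGF-beta 1 (chromosome 16, 32142785 to 32165594), was at 651, 383 and 528 CPM in Tmem106b WT Grn WT and at 313, 254, 337 and 351 CPM in Grn KO. The Tmem106b HET libraries stood at 465, 499, 235 and 359 CPM with Grn WT and at 331, 238 and 73.5 CPM with Grn KO. The groups did not overlap in Tmem106b WT and overlapped in Tmem106b HET, where the lowest Grn WT library was a Hemi library. The log2 fold change was -0.86 ± 0.33 (edgeR adjusted p = 0.29) and -1.22 ± 0.34 (adjusted p = 0.024). The Tmem106b HET call was lost without Grn KO replicate 3 (-0.89, adjusted p = 0.18), while among the Entire libraries alone both passed, at -0.84 (adjusted p = 0.023) and -0.79 (adjusted p = 0.011). The Entire libraries are few, with 3 Grn KO and 2 Grn WT in Tmem106b WT and 2 of each in Tmem106b HET.

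Tgfbr1, the type I receptor kinase (chromosome 4, 47353222 to 47414931), was at 1410, 776 and 1160 CPM in Tmem106b WT Grn WT and at 992, 717, 629 and 607 CPM in Grn KO. In the Tmem106b HET groups its level was 1360, 1310, 807 and 1150 CPM with Grn WT and at 642, 554 and 125 CPM with Grn KO. The groups overlapped in Tmem106b WT, where 1 Grn KO library exceeded the Hemi Grn WT library, and were separate in Tmem106b HET. Its log2 fold change was -0.55 ± 0.39 (edgeR adjusted p = 0.61) in the former and -1.72 ± 0.42 (adjusted p = 0.012) in the latter, where it was -1.23 (adjusted p = 0.1) without Grn KO replicate 3.

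Tgfbr2, the ligand-binding type II receptor (chromosome 9, 116084293 to 116175360), was at 983, 545 and 670 CPM in Tmem106b WT Grn WT and at 701, 544, 529 and 525 CPM in Grn KO. In Tmem106b HET the values were 732, 925, 589 and 867 CPM with Grn WT and 500, 406 and 120 CPM with Grn KO. The Tmem106b WT groups overlapped and the Tmem106b HET groups did not. Its log2 fold change was -0.32 ± 0.40 (edgeR adjusted p = 0.81) and -1.49 ± 0.43 (adjusted p = 0.025), and averaged over both it was -0.90 ± 0.29 (adjusted p = 0.038). Without Grn KO replicate 3 the Tmem106b HET value was -1.06 (adjusted p = 0.19), and without the 2 libraries low in microglial markers the averaged value was -0.60 (adjusted p = 0.059).

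Eng (chromosome 2, 32646595 to 32682669, plus strand), whose promoter with its pair of CAGAC matches is printed above, was at 130, 64.8 and 92.3 CPM in Tmem106b WT Grn WT and at 24.0, 17.7, 26.1 and 26.9 CPM in Grn KO. Tmem106b HET libraries held it at 81.8, 100, 74.7 and 64.4 CPM with Grn WT and at 15.7, 15.4 and 9.07 CPM with Grn KO. The gap between the groups was wide in both Tmem106b genotypes, and the highest Grn KO library of all stood at 26.9 CPM against 64.4 CPM for the lowest Grn WT library of these 2 genotypes. Eng fell by 1.99 ± 0.38 on the log2 scale in Tmem106b WT (95% interval -2.78 to -1.19, edgeR adjusted p = 0.016) and by 2.77 ± 0.41 in Tmem106b HET (-3.63 to -1.90, adjusted p = 0.0016), and averaged over both the change was -2.38 ± 0.28 (adjusted p = 5.9e-05). Within the dissection labels the Hemi libraries stood at 17.7 CPM with Grn KO against 64.8 CPM with Grn WT in Tmem106b WT, and at 9.07 CPM against 74.7 and 64.4 CPM in Tmem106b HET. Among the Entire libraries alone the log2 fold changes were -2.06 (adjusted p = 0.0035) and -2.57 (adjusted p = 0.00072). These rest on 3 Grn KO and 2 Grn WT libraries in Tmem106b WT and on 2 of each in Tmem106b HET. Without the 2 libraries low in microglial markers the values were -1.98 (adjusted p = 0.00051) and -2.67 (adjusted p = 0.00038). In Tmem106b WT the call was lost when 1 of 3 libraries was left out in turn: Grn WT replicate 1 (adjusted p = 0.066), Grn WT replicate 2 (0.37) and Grn KO replicate 1 (0.097).

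Endothelial cells are the best known site of Eng expression, so 10 endothelial markers (among them Flt1, Cldn5 and Pecam1, the 3 highest) stand beside it. Their sum was 46.3 to 99.14 CPM in Tmem106b WT Grn WT and 70.47 to 126.8 CPM in Grn KO, and 41.39 to 770 CPM in Tmem106b HET Grn WT against 40.21 to 50.8 CPM in Grn KO. The library with 770 CPM of endothelial markers had Eng at 74.7 CPM, within the range of its group. In Tmem106b KO Grn WT replicate 2 the endothelial sum was 0.2591 CPM, with Flt1 the only marker detected, and Eng was at 8.30 CPM. With the endothelial sum as a covariate the log2 fold change of Eng was -2.17 (edgeR adjusted p = 0.00093) in Tmem106b WT and -2.43 (adjusted p = 0.00059) in Tmem106b HET. Fibroblast marker sums averaged 182.2 CPM in Grn KO against 331.1 in Tmem106b WT, and 118.6 against 197.3 in Tmem106b HET. Mural (vessel wall) sums averaged 181.7 against 273.9 and 122.9 against 247.6 CPM. Border macrophage sums averaged 321.9 against 374 and 190.6 against 307.9 CPM. These sums were not covariates, and such cells as a source of Eng were not tested. Eng overlaps Fpgs, a folate enzyme gene on the opposite strand, and whether the counting used strand is not given in the sources used here. Fpgs did not pass in either comparison (-0.49, adjusted p = 0.66, and -0.93, adjusted p = 0.12). No other member overlaps an annotated gene.

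Smad2, a receptor-activated SMAD (chromosome 18, 76241580 to 76310963), was at 72.4, 43.3 and 64.7 CPM in Tmem106b WT Grn WT and at 60.4, 41.6, 62.9 and 53.1 CPM in Grn KO. With Tmem106b HET the values were 54.5, 81.0, 33.5 and 79.4 CPM with Grn WT and at 65.3, 53.4 and 33.2 CPM with Grn KO. The groups overlapped in both, and Smad2 varied least of the members over the 26 libraries, 2.44-fold from lowest to highest. Its averaged log2 fold change was -0.30 (95% interval -0.68 to 0.08, edgeR adjusted p = 0.27).

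Smad3, the other receptor-activated SMAD and the one that binds DNA directly (chromosome 9, 63646767 to 63757994), was at 102, 55.7 and 61.0 CPM in Tmem106b WT Grn WT and at 44.4, 50.0, 25.1 and 26.5 CPM in Grn KO. The Tmem106b HET libraries stood at 77.2, 106, 71.8 and 100 CPM with Grn WT and at 25.8, 36.9 and 3.50 CPM with Grn KO. The groups did not overlap in either, and the value of 3.50 CPM came from the library low in microglial markers. The log2 fold change was -0.94 ± 0.50 (edgeR adjusted p = 0.46) in Tmem106b WT and -2.32 ± 0.56 (adjusted p = 0.011) in Tmem106b HET, where it was -1.61 (adjusted p = 0.057) without that library.

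Smad7, the inhibitory SMAD that blocks the type I receptor (chromosome 18, 75367529 to 75395935), was at 44.6, 36.6 and 45.2 CPM in Tmem106b WT Grn WT and at 17.2, 28.7, 18.1 and 21.2 CPM in Grn KO. In the Tmem106b HET groups its level was 43.0, 36.8, 48.5 and 34.6 CPM with Grn WT and at 16.8, 20.7 and 10.2 CPM with Grn KO. Neither pair of groups overlapped. The log2 fold change was -1.03 ± 0.33 (edgeR adjusted p = 0.18) and -1.49 ± 0.34 (adjusted p = 0.0078), and the average of -1.26 ± 0.24 (adjusted p = 0.0016) had the smallest adjusted p after Eng. In Tmem106b HET it was -1.28 (adjusted p = 0.068) without Grn KO replicate 3.

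Ski, a nuclear co-repressor of SMAD complexes (chromosome 4, 155154075 to 155222592), was at 178, 224 and 180 CPM in Tmem106b WT Grn WT and at 112, 318, 103 and 129 CPM in Grn KO. Tmem106b HET libraries held it at 293, 492, 477 and 491 CPM with Grn WT and at 110, 154 and 56.9 CPM with Grn KO. The Tmem106b WT groups overlapped through 1 high Grn KO library, and the Tmem106b HET groups did not overlap, with the Grn WT libraries above those of Tmem106b WT. Its log2 fold change was -0.37 ± 0.60 (edgeR adjusted p = 0.87) in Tmem106b WT and -2.29 ± 0.64 (adjusted p = 0.023) in Tmem106b HET, and the latter was -2.02 (adjusted p = 0.14) without Grn KO replicate 3.

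Pmepa1, a membrane protein that sequesters receptor-activated SMADs (chromosome 2, 173224458 to 173276533), was at 311, 258 and 540 CPM in Tmem106b WT Grn WT and at 112, 155, 146 and 171 CPM in Grn KO. With Tmem106b HET the values were 244, 248, 301 and 248 CPM with Grn WT and at 53.5, 128 and 102 CPM with Grn KO. The groups did not overlap in either. The log2 fold change was -1.19 ± 0.52 (edgeR adjusted p = 0.35) and -1.50 ± 0.53 (adjusted p = 0.061), and only the average passed, at -1.35 ± 0.37 (adjusted p = 0.017).

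**Figure D2:**
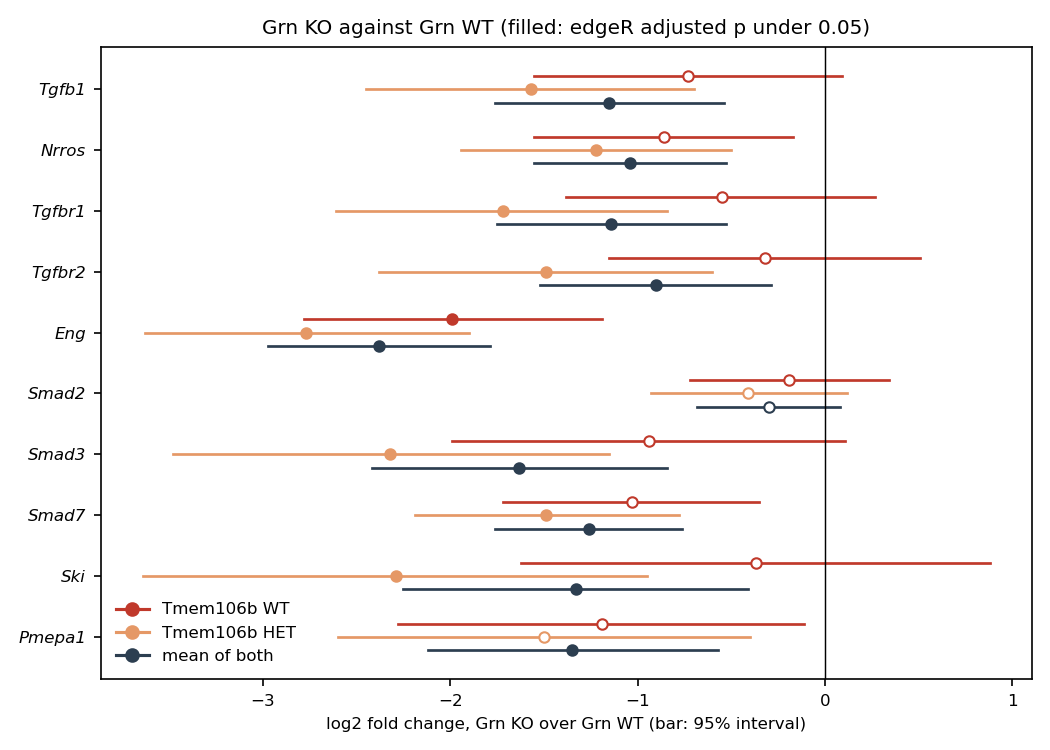
Log2 fold change of Grn KO over Grn WT for each gene in Tmem106b WT, in Tmem106b HET and averaged over both, with 95% intervals; filled points passed edgeR's test at an adjusted p under 0.05. Eng lies farthest from 0 in all 3, from -1.99 to -2.77, and Smad2 nearest to 0 in all 3.

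The counts of members that fell depended on the libraries, and so did the share of all genes called. Without Tmem106b HET Grn KO replicate 3 the count in Tmem106b HET went from 8 to 1 of 10, the 1 being Eng (-2.79, edgeR adjusted p = 0.0085), and 4.91% of all genes passed. Without both libraries low in microglial markers it was 4, beside 6.98% of all genes. The averaged count was 7 without those 2 libraries (13.8% of all genes) and 7 among Entire libraries alone (14.3%). Scaling the libraries to their summed microglial markers in place of TMM raised the fold changes of all genes together, since that sum was lower in Grn KO: the median log2 fold change over all genes became 0.90 in Tmem106b WT, 1.47 in Tmem106b HET and 1.20 in the average, so values on this scale are read against those medians. In Tmem106b HET 2 members passed, beside 44.9% of all genes, and in the average 2 did, beside 50.2%: Eng stayed lower, at -1.17 (adjusted p = 0.006) and -1.19 (adjusted p = 0.00056), and Smad2 was higher, at 1.13 (adjusted p = 0.028) and 0.87 (adjusted p = 0.02). In Tmem106b WT that scaling left Eng at -1.20 (adjusted p = 0.047) as the 1 member called, beside 1.94% of all genes. The other 8 members then had averaged log2 fold changes between -0.56 and 0.21. All 10 lay below the all-gene median of 1.20, as they lay below that of 0.059 with TMM. A shift of all genes together leaves that order nearly as it was, so this adds nothing to the TMM result. Of the 8 microglial markers 7 also belong to the TGF-beta-dependent microglial genes described below, so this scaling is not independent of the pathway.

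Members were also set per 1000 CPM of summed microglial markers, with both in CPM of the plain library total, without TMM. Eng was then at 1.67 to 2.37 CPM in Tmem106b WT Grn WT and 0.737 to 0.839 CPM in Grn KO, and at 1.52 to 2.31 CPM in Tmem106b HET Grn WT and 0.444 to 1.3 CPM in Grn KO. Neither pair of groups overlapped. Tgfbr1 on the same scale was at 20.9 to 25.7 CPM and 18.2 to 31.1 CPM in the Tmem106b WT groups, which overlapped, and at 24.0 to 31.6 CPM and 17.8 to 28.1 CPM in the Tmem106b HET groups, which overlapped too. Smad2 in Tmem106b WT was at 1.17 to 1.32 CPM against 1.65 to 1.85 CPM, with every Grn KO library above the Grn WT libraries. In Tmem106b HET its ranges of 1.04 to 1.87 CPM and 1.84 to 4.75 CPM overlapped. With libraries scaled to the marker sum, 88.5% of all genes tested had a log2 fold change above 0 in Tmem106b WT and 86.5% in Tmem106b HET. Higher values of Smad2 on this scale are therefore not particular to it. The share of all genes without overlap on this scale was not counted, for Eng's direction or for that of Smad2.

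**Figure D3:**
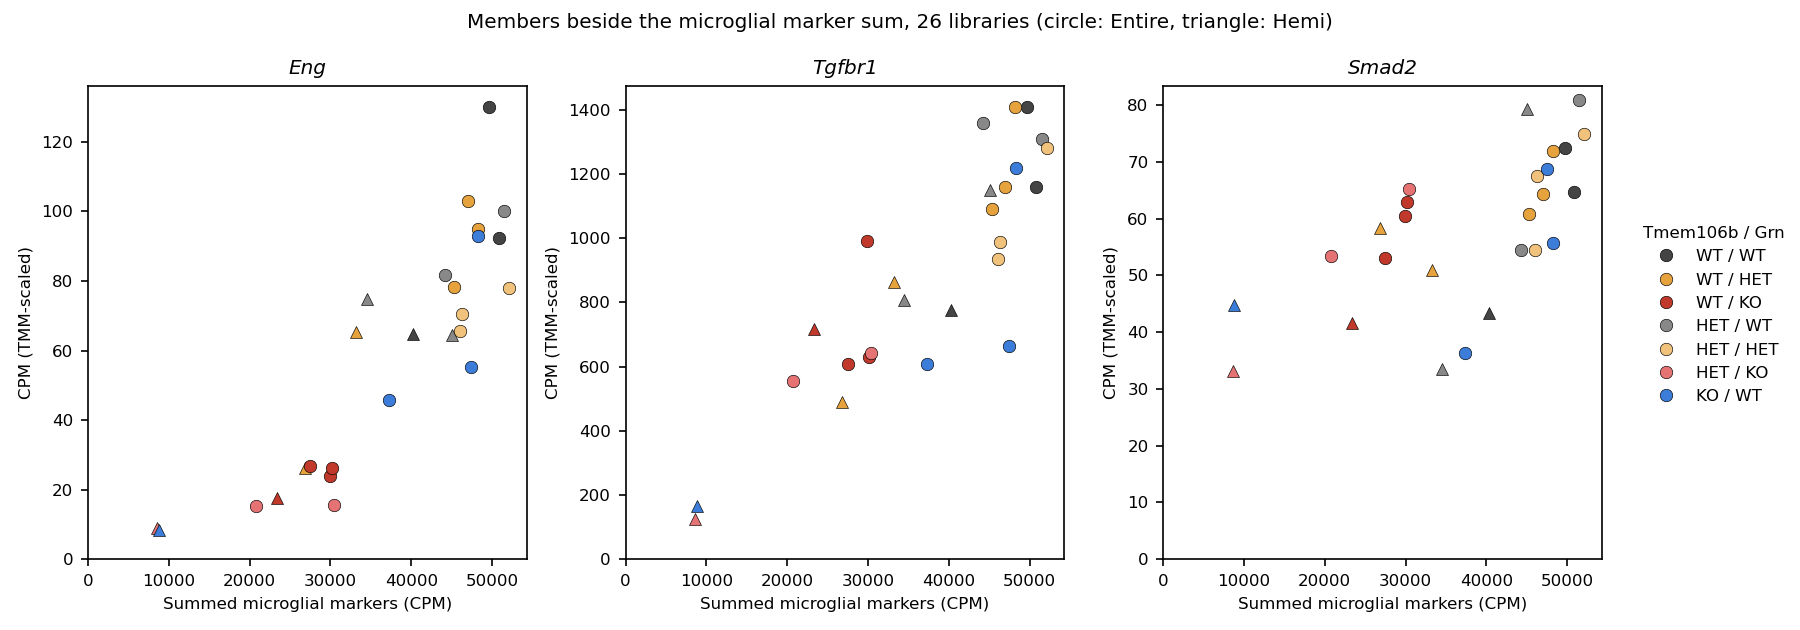
CPM of Eng, Tgfbr1 and Smad2 (vertical axes, TMM-scaled) against the summed CPM of 8 microglial markers (horizontal axis) in the 26 libraries, coloured by genotype (circles Entire, triangles Hemi). The 2 libraries with 8595 and 8824 CPM of markers are the lowest for Eng and for Tgfbr1, and the other Grn KO libraries lie between 20750 and 30380 CPM of markers, with Eng at 15.4 to 26.9 CPM.

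Whether the Grn KO difference itself depended on Tmem106b was tested as an interaction, for which 0 of 10 members passed edgeR's test and 0% of all genes did. At an unadjusted p under 0.05 there was 1 member, beside 4.29% of all genes, and DESeq2 and limma-voom also called 0 members. All 10 interaction terms were below 0, meaning a larger fall in Tmem106b HET, with a median of -0.81 against -0.13 over all genes. The Tmem106b HET Grn KO group includes replicate 3, low in microglial markers and the lowest of its group in every member but Pmepa1. Ski had the largest, at -1.93 (95% interval -3.72 to -0.14, unadjusted p = 0.036, adjusted p = 0.87), and Eng was at -0.78 (-1.89 to 0.33, adjusted p = 0.87). The larger number of calls in Tmem106b HET is therefore not shown to be a difference between the Tmem106b genotypes.

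Grn HET, the haploinsufficient state, was compared with Grn WT in each Tmem106b genotype. Grn itself passed in neither, although it averaged 1410 CPM against 3350 CPM in Tmem106b WT and 1830 CPM against 2980 CPM in Tmem106b HET. Its log2 fold changes were -1.59 ± 1.24 and -0.24 ± 1.29. The Grn libraries did not overlap, at 824 to 1780 CPM against 2300 to 3900 CPM and at 1550 to 2030 CPM against 2080 to 4050 CPM. Members had smaller SEs, 0.25 to 0.60 in Tmem106b WT and 0.26 to 0.63 in Tmem106b HET. The missing Grn call therefore does not measure how well changes in members would be found. A lack of calls among the members does not show that they were unchanged either. In Tmem106b WT 0 of 10 members passed edgeR's test (0% of all genes), and 0 by DESeq2 or limma-voom. At an unadjusted p under 0.05 there were 0, beside 3.43% of all genes, and log2 fold changes ran from -0.48 (Nrros) to 0.80 (Ski). Eng was at 94.9, 26.2, 103, 78.2 and 65.4 CPM in these Grn HET libraries, overlapping Grn WT, and the lowest was a Hemi library. In Tmem106b HET again 0 members passed by edgeR (0% of all genes), DESeq2 or limma-voom. There 0 had an unadjusted p under 0.05, beside 5.54% of all genes, and log2 fold changes ran from -0.79 (Smad3) to -0.03 (Nrros). The Grn HET libraries there were all Entire, while 2 of 4 Grn WT libraries were Hemi. Before adjustment for dissection and sex, Nrros averaged 505 CPM in Grn HET against 390 CPM in Grn WT. All 10 members overlapped between the groups in both comparisons. Of all genes tested, 1.1% lay wholly higher and 0.926% wholly lower in Tmem106b WT Grn HET, and 4.2% and 2.88% in Tmem106b HET Grn HET.

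Tmem106b KO was compared with Tmem106b WT in Grn WT. Of the members 0 of 10 passed edgeR's test, DESeq2 or limma-voom, while 0.00468% of all genes passed by edgeR, the 1 gene being Tmem106b itself. At an unadjusted p under 0.05 there were 6 members, beside 11% of all genes, and 9 of 10 had a log2 fold change below 0. Eng was at 55.2, 8.30, 45.8 and 92.9 CPM in Tmem106b KO, against 130, 64.8 and 92.3 CPM in Tmem106b WT, with a log2 fold change of -1.17 ± 0.38 (adjusted p = 0.43). Tgfbr1 was at 663, 165, 609 and 1220 CPM and Nrros at 434, 62.3, 387 and 439 CPM in Tmem106b KO. Replicate 2, the library low in microglial markers, was the lowest of its group in every member but Smad2 and Pmepa1. The counts of 6 and 9 include it and were not made without it. All 10 members overlapped between the groups, while 2.52% of all genes lay wholly higher and 2.07% wholly lower. Pmepa1 had the largest absolute value, at -1.21 ± 0.51 (adjusted p = 0.43).

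Tmem106b HET was compared with Tmem106b WT at each Grn genotype, and 0 of 10 members passed by edgeR (0% of all genes), DESeq2 or limma-voom in any of them. With Grn WT and with Grn HET 0 members had an unadjusted p under 0.05, beside 3.49% and 6.79% of all genes. With Grn KO 4 did (Tgfb1, Tgfbr1, Tgfbr2 and Eng), beside 3.79%. In each of these 4 the lowest Grn KO library was Tmem106b HET replicate 3, the library low in microglial markers. This count was not made without it. Ski with Grn WT was the 1 member whose Tmem106b HET libraries (293, 492, 477 and 491 CPM) all lay above Tmem106b WT (178, 224 and 180 CPM), a pattern seen in 2.06% of all genes (and its opposite in 1.96%), with a log2 fold change of 1.23 ± 0.60 (edgeR adjusted p = 1). With Grn HET the 1 such member was Nrros (3.15% of all genes, the opposite in 2.88%; log2 fold change 0.16). With Grn KO the Tmem106b HET libraries lay below the Tmem106b WT libraries in 3 members, Tgfb1, Eng and Tgfbr2 (3.18% of all genes, the opposite in 2.94%). These comparisons share libraries with the Grn comparisons, as Tmem106b KO does with Grn KO in Tmem106b WT through the Grn WT libraries. The interaction of Grn HET with Tmem106b HET called 0 members by edgeR (0% of all genes), DESeq2 or limma-voom. At an unadjusted p under 0.05 there were 0, beside 5.6% of all genes, and the terms ran from -1.52 (Ski) to 0.45 (Nrros).

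**Figure D4:**
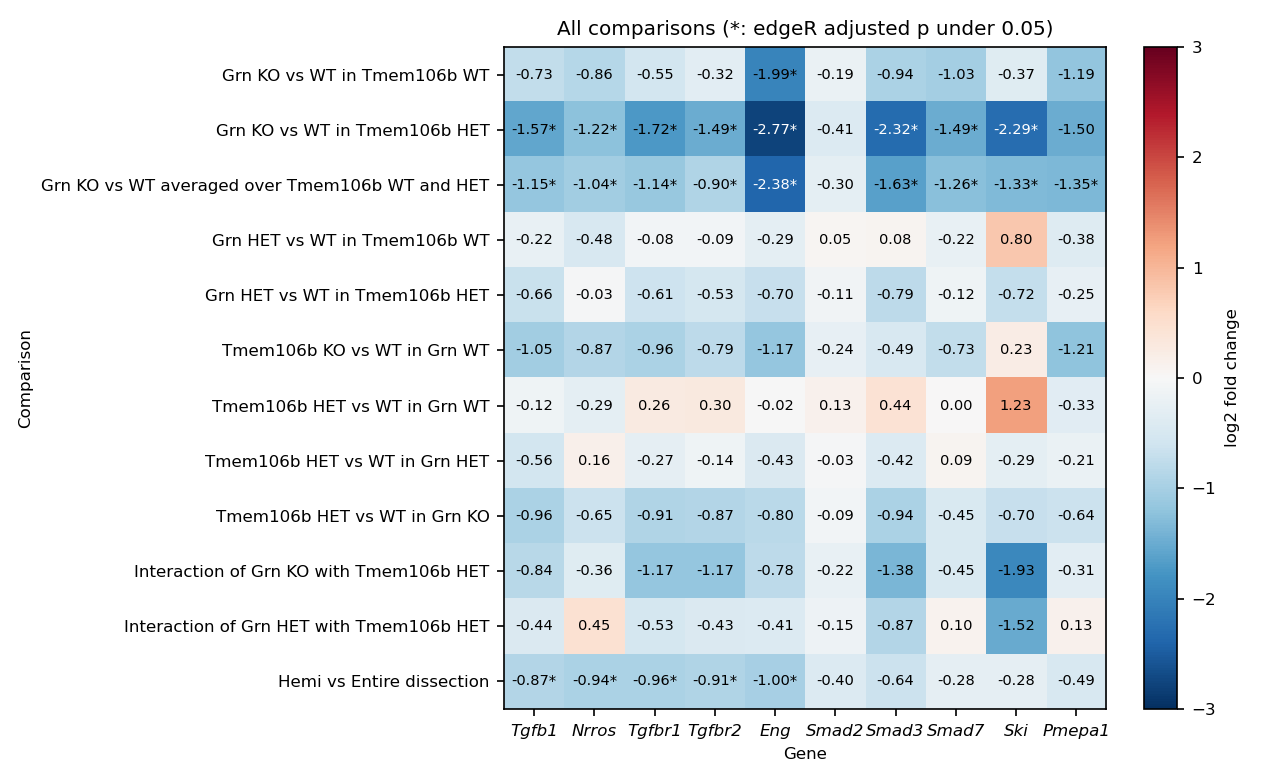
Log2 fold change of each gene (columns) in 11 genotype comparisons and interactions and in Hemi against Entire (rows), with the value in each cell, blue for lower and red for higher; an asterisk marks an edgeR adjusted p under 0.05. Asterisks stand only in the 3 rows of Grn KO against WT and in the dissection row.

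The dissection label also moved with these genes. In a comparison added after the data were seen, 5 of 10 members were lower in the 8 Hemi libraries than in the 18 Entire libraries, with genotype and sex in the model, while 20.7% of all genes passed and 9.03% passed as lower. They were the ligand, its anchor and the receptors: Tgfb1 (-0.87), Nrros (-0.94), Tgfbr1 (-0.96), Tgfbr2 (-0.91) and Eng (-1), with edgeR adjusted p from 0.0048 to 0.018. None of the SMADs, Ski or Pmepa1 passed. Without the 2 libraries low in microglial markers the count was 2, beside 7.45% of all genes. Cell type markers moved with the label as well: neuronal markers summed to 468 to 7232 CPM in Hemi (median 1274) and 43.55 to 2038 CPM in Entire libraries (median 215), and microglial markers to 8595 to 45080 CPM (median 30010) and 20750 to 52130 CPM (median 46180). With the neuron, oligodendrocyte and choroid plexus sums as covariates 0 members and 0% of all genes passed. Between male and female libraries 0 of 10 members passed by edgeR (0.0281% of all genes), and 0 had an unadjusted p under 0.05 (3.19% of all genes).

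Around the 10 genes, 61 further genes of the pathway were listed by role, of which 60 were tested. In Tmem106b WT, Grn KO changed 2 of them, while 0.576% of all genes passed: Cdkn1a, a cell cycle inhibitor induced by TGF-beta in many cell types, rose (log2 fold change 1.72 ± 0.36, edgeR adjusted p = 0.027), and Tmem119, a surface protein of resting microglia, fell (-1.54 ± 0.34, adjusted p = 0.044). Each call was kept in 11 of 20 alternatives. Averaged over both Tmem106b genotypes, 9 of 13 TGF-beta-dependent microglial genes fell and 0 rose, while 7.38% of all genes passed as lower and 10.7% as higher, with a list median of -1.20 against 0.059 over all genes. The largest were Sall1, a transcription factor of microglial identity (-2.12 ± 0.33), Tmem119 (-1.82 ± 0.26) and the lectin Siglech (-1.58 ± 0.25). They were followed by the purinergic receptor P2ry12 (-1.46 ± 0.27), the fractalkine receptor Cx3cr1 (-1.34 ± 0.28) and the phagocytic receptor Mertk (-1.20 ± 0.23). In Tmem106b HET 9 of 13 fell and 0 rose as well, while 6.05% of all genes passed as lower, among them Sall1 (-2.67), Tmem119 (-2.11), Siglech (-1.92), Cx3cr1 (-1.81), P2ry12 (-1.74) and Mertk (-1.56). Of these 13 genes 7 are also among the 8 microglial markers whose sum was lower in Grn KO, so the counts are not independent of that sum. In Hemi against Entire libraries 11 of the 13 were lower too, while 9.03% of all genes passed as lower. Of the other listed genes 7 fell in Tmem106b HET: Itgav (-1.84), Acvrl1 (-1.65), Acvr1 (-1.56), Ldlrad4 (-1.52), Smurf1 (-1.43), Skil (-1.42) and Tgfbi (-1.04), while Fkbp1a rose (0.85). The calls of Acvrl1 and Tgfbi there were kept in 8 of 20 alternatives each and that of Acvr1 in 10.

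The counts of the other lists in the average stand beside 10.7% of all genes passing as higher and 7.38% as lower. Among 11 tested ligands and activation genes 1 rose and 1 fell, a share near that background: Tgfb2, a second ligand of low level, rose (3.11 ± 0.81, edgeR adjusted p = 0.012), and Itgav, the integrin subunit that helps to release the ligand, fell (-1.23 ± 0.29, adjusted p = 0.0061). Tgfb2 averaged 0.600 CPM in Tmem106b WT Grn WT and 5.74 CPM in Grn KO, but 14.0 CPM in Grn HET, where the range was 0.946 to 46.2 CPM. The 6 choroid plexus markers moved with it, at means of 4.216, 317 and 7305 CPM in the same 3 groups, and the call was lost in 5 of 27 alternatives, with an adjusted p of 0.5 once the neuron, oligodendrocyte and choroid plexus sums were covariates. Of 8 further receptors 2 fell, the type I receptors Acvr1 (-1.23 ± 0.29) and Acvrl1 (-1.10 ± 0.36), and of 5 other SMADs 1 fell, Smad1 (-0.54 ± 0.12). The averaged call of Acvrl1 was kept in only 10 of 27 alternatives. Of 14 regulators 3 fell and 2 rose. The 3 were the ubiquitin ligase Smurf1 (-1.16 ± 0.23), the membrane inhibitor Ldlrad4 (-1.16 ± 0.18) and the co-repressor Skil (-0.94 ± 0.24). The decoy receptor Bambi rose (2.27 ± 0.53, adjusted p = 0.006), from 5.71 to 37.6 CPM in Tmem106b WT and from 6.86 to 27 CPM in Tmem106b HET, and the receptor-binding protein Fkbp1a rose by less (0.60 ± 0.16). Of 9 targets known from many cell types 2 fell, Ccn2 (-1.71 ± 0.46) and Tgfbi (-0.72 ± 0.23), and 2 rose, Id2 (1.04 ± 0.23) and Cdkn1a (1.29 ± 0.25), and the call of Tgfbi was kept in 12 of 27 alternatives. Higher and lower genes both occurred among the regulators and among the targets. Scaled to the microglial marker sum, Smad1 (0.67), Acvrl1 (0.08), Ldlrad4 (0.05), Smurf1 (0.02), Skil (0.18) and Tgfbi (0.40) turned above 0 in the average. All lay below the all-gene median of 1.20 on that scale, which a shift of all genes together nearly fixes in advance.

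**Figure D5:**
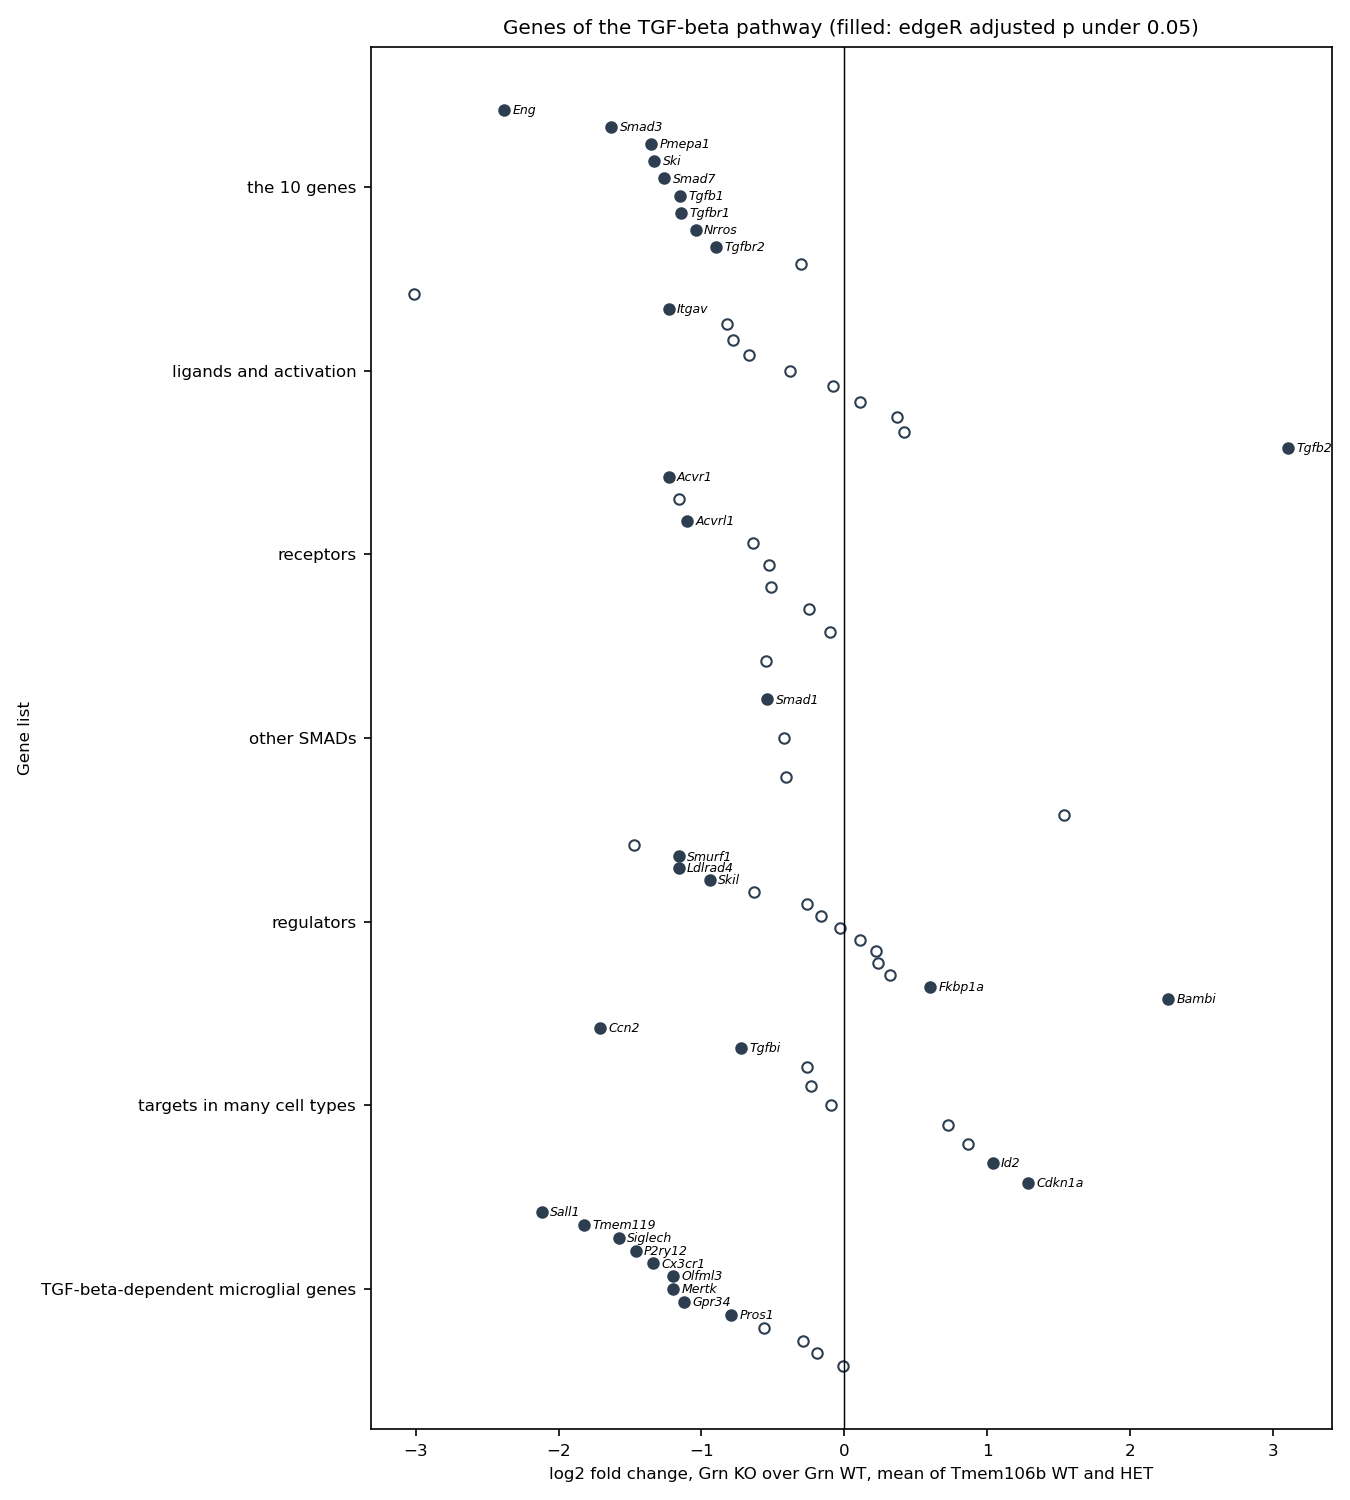
Log2 fold change of Grn KO over Grn WT, averaged over Tmem106b WT and HET (horizontal axis), for the 10 genes and the 60 further genes tested, by list; each point is a gene and filled, named points passed edgeR's test at an adjusted p under 0.05. The 10 genes, the receptors and the TGF-beta-dependent microglial genes lie below 0, while the other lists lie on both sides.

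The genes most like each member were found as the smallest root mean square difference of centred log2 CPM over the 26 libraries, among genes with a mean of at least 5 CPM, as a description of libraries that share depth and cell content. Eng was most like Adgrg1, an adhesion receptor of microglia (0.33), and Sall1 (0.35). Among the receptors, Tgfbr1 was nearest to Sft2d2 (0.16) and Pald1 (0.19) and Tgfbr2 to Slc44a2 (0.16) and Edem1 (0.17). Nrros was nearest to Lcp2 (0.16) and Pla2g15 (0.18), and Tgfb1 to Hcls1 (0.18) and Cebpa (0.21). Smad2 was nearest to Zfp207 (0.19) and Gosr2 (0.21), and Smad7 to Pou2f2 (0.24) and Rhob (0.25). Matches were loosest for Pmepa1 with Qk (0.35) and Heca (0.38), Smad3 with Stk10 and Dgkd (0.38 each) and Ski with Abl1 (0.47) and Dgkd (0.49).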

How the data were processed

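The deposited files, 1 per library, hold exonic read counts and RPKM for each Ensembl gene, per the file headers. Reads were aligned with GSNAP to GRCm38, per the submitters' processing notes, and the libraries were made from column-extracted RNA with SMART-Seq v4 and Nextera XT kits, per the labels' protocols. The counter, annotation release, strand setting and read filters are not given in the sources used here. The RPKM values deposited by the authors were used only to compare levels between genes. Of 52636 genes 52489 matched GENCODE M21, the source of symbols and coordinates.

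The deposited counts were tested with edgeR 4.0.16 in R 4.3.3. The edgeR expression filter left 21371 genes, libraries were scaled by TMM, and the model held the 7 genotype groups, sex and dissection over all 26 libraries with robust spread. Comparisons were made by edgeR's quasi-likelihood F-test, two-sided, and p-values were adjusted by Benjamini and Hochberg's method across all tested genes, with calls at an adjusted p under 0.05. The script was tested on simulated counts with 100 genes changed 2-fold and 100 changed 8-fold in the Grn KO groups. Of the 2-fold changes it recovered 16% in Tmem106b WT, 18% in Tmem106b HET and 41% in the average. Of the 8-fold changes it recovered 74%, 80% and 87%. DESeq2 1.42.0, limma-voom (limma 3.58.1), other scalings, covariates and filters, and leaving out each library were alternatives. Totals were 37.6 to 63.7 M reads per library, and no molecular identifiers are stated.

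Groups came from the genotype label. Replicate numbers are names in accession order and pair nothing. The members, gene lists and tests were chosen with earlier results of these data known. Named are all members, Grn and Tmem106b, up to 6 genes per list by p among those that passed in a Grn KO comparison, the 2 genes most like each member, and the highest markers. Fpgs, which overlaps Eng, was added. For 1 gene named by the rule, values are not reported here.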

Additional observations from a re-analysis of the deposited data

Results flagged for a closer look

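In 40 sets of 4 or 5 libraries (each member in each group of that size), 5 held a library whose gap to its nearest neighbour passed Dixon's 95% critical value, and chance alone marks about 1 set in 20. Tgfbr2 in Tmem106b WT Grn KO replicate 1 stood high, at 701 CPM against 525 to 544 CPM in the others. Ski in Tmem106b WT Grn KO replicate 2 stood high, at 318 CPM against 103 to 129 CPM. In Tmem106b HET Grn WT, Ski was low in replicate 1, at 293 CPM against 477 to 492 CPM, and Pmepa1 was high in replicate 3, at 301 CPM against 244 to 248 CPM. Nrros in Tmem106b KO Grn WT replicate 2 was low, at 62.3 CPM against 387 to 439 CPM, and this is 1 of the 2 libraries low in microglial markers.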

How the results depend on the processing

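No paired analysis was possible because the labels carry no replicate numbers. The averaged Grn KO change of Eng kept its direction and its call in all 27 alternatives, from -2.48 to -1.19 with a highest adjusted p of 0.018. Eng kept its call in 19 of 20 alternatives in Tmem106b HET and in 14 of 20 in Tmem106b WT. The members called in Tmem106b WT, Tmem106b HET and the average numbered 1, 8 and 9, beside 0.576%, 14.5% and 18.1% of all genes. They numbered 0, 1 and 4 with no covariates, beside 0.271%, 1.05% and 5.13%. With sex only they numbered 0, 2 and 4, beside 0.211%, 1.31% and 6.49%. With the neuron, oligodendrocyte and choroid plexus marker sums as covariates they numbered 0, 0 and 1, beside 0.0983%, 0.00936% and 0.664%. DESeq2 called 2 in Tmem106b WT, beside 5.49% of all genes. With only the groups compared 3 were called in Tmem106b HET, beside 6.33%. Leaving out each library in turn gave 0 to 2, 1 to 8 and 4 to 9. The share of all genes then ran from 0.00445% to 1.77%, 4.91% to 12.3% and 9.55% to 21.9%. The 4 came without Tmem106b WT Grn WT replicate 2. The 0 came without Grn WT replicate 1 or 2 or Grn KO replicate 1 and the 2 without Grn KO replicate 2, all of Tmem106b WT. In Tmem106b HET the 1 came without Grn KO replicate 3, and 5 were called without Grn KO replicate 2. The cause was not tested.

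Alternatives added after the data were seen also moved these counts. Without the 2 libraries low in microglial markers they were 2, 4 and 7, beside 2.48%, 6.98% and 13.8% of all genes. With Entire libraries only they were 2, 5 and 7, beside 1.57%, 6.89% and 14.3%. The dissection count of 5 (20.7% of all genes) became 2 without those 2 libraries (7.45%) and 2 with the endothelial covariate (9.29%). It was 0 with the 3 marker covariates (0%) and 2 with scaling to the microglial marker sum (51%). That scaling left 2 members called in Tmem106b HET and 2 in the average, beside 44.9% and 50.2%. By construction it also moved the median of all genes, to 0.90 in Tmem106b WT, 1.47 in Tmem106b HET, 1.20 in the average, 1.10 for Tmem106b KO, 0.97 for Hemi, 0.74 for Tmem106b HET in Grn KO and 0.57 for the Grn KO interaction. Each turned value listed here lies below the median of its comparison, which a shift of all genes together nearly fixes in advance. In Tmem106b WT, Grn KO gave 0.01 for Tgfb1, 0.19 for Tgfbr1, 0.45 for Tgfbr2, 0.61 for Smad2 and 0.34 for Ski. In Tmem106b HET it gave 1.13 for Smad2, 0.05 for Smad7, 0.24 for Nrros, 0.21 for Pmepa1, 0.07 for Ldlrad4, 0.15 for Smurf1, 0.08 for Skil and 0.44 for Tgfbi. The average was 0.21 for Tgfbr2, 0.87 for Smad2, 0.08 for Nrros, 0.67 for Smad1, 0.08 for Acvrl1, 0.05 for Ldlrad4, 0.02 for Smurf1, 0.18 for Skil and 0.40 for Tgfbi. Tmem106b KO then gave 0.83 for Smad2, 0.40 for Smad3 and 0.20 for Smad7, and Hemi against Entire gave 0.76 for Smad7. Smad2 was at 0.62 for Tmem106b HET in Grn KO and at 0.52 for the Grn KO interaction.

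Values near 0 also turned. Nrros in Grn HET of Tmem106b HET (-0.03) was 0.06 with Entire libraries only, 0.17 with the endothelial covariate, 0.38 with no covariates, 0.51 with sex only, 0.17 with the marker scaling, 0.10 without the 2 libraries, and -0.14 to 0.17 leaving out each library. Ski in Tmem106b KO (0.23) was -0.17 with limma-voom, -0.03 with only the groups compared and -0.42 to 0.60 leaving out each library. The Smad2 interaction (-0.22) was 0.13 with Entire libraries only and -0.39 to 0.09 leaving out each library. Smad2 for Tmem106b HET in Grn KO (-0.09) was 0.04 without the 2 libraries and -0.22 to 0.04 leaving out each library. Totals of 37.6 to 63.7 M reads set the counting error, and groups of 3 to 5 libraries set how well the spread is known.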
